A study of Mus musculus with 8 samples.

Results

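The array used for these embryos carries 16181 probes for 3540 noncoding intervals, stretches of the mouse genome (build mm9) that the array's design names only by chromosome, start, end and strand. Of these probes, 713 (4.41%) were bright in every embryo, and they lie in 395 of the 3540 intervals (11.2%). The bright probes were chosen by these measured levels. A probe was counted as bright when the scanning software marked its spot as well above background on all 8 arrays and its level, averaged over the arrays, was above 0. Level here means the log2 of the processed signal minus the 75th percentile of that array, so that 0 is the 75th percentile itself. Levels of the chosen probes are given only as a description. F and R are the forward and reverse strand of the interval as the probe name gives it. Whether an interval lies between genes was not checked, because no mm9 annotation was used here, and the scanner files hold no probe sequence.

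Long noncoding RNAs are transcripts that are not translated into protein. Some act in the nucleus as scaffolds or regulate genes nearby, some are hosts of small RNAs, and many are byproducts of transcription that starts at promoters or enhancers. At embryonic day 8.5 the mouse embryo forms somites, a heart tube and a neural plate, and several noncoding transcripts are known to be made in these tissues. EED, the protein altered in the fathers of this study, is a core subunit of Polycomb Repressive Complex 2 (PRC2), which methylates histone H3 and keeps developmental genes silent.

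The publication asked whether PRC2 takes part in paternal epigenetic inheritance, mainly by comparing heterozygous offspring of homozygous and heterozygous fathers. The embryos used here come from another comparison, of offspring that did not inherit the Eed mutation. All 8 embryos were wild type (Eed wt/wt), were collected at E8.5 and had wild-type mothers, C57bl6/129 per the labels (a legend of the publication names c57bl/6J). Of the fathers, all C57bl6/129 males of the Eed l7Rn5-1989SB line, 4 embryos had a wild-type (WT) and 4 a heterozygous (HET, Eed hypo/wt) one, with 2 female and 2 male embryos in each group. Total RNA of each embryo was labelled with Cy3 and hybridised to 1 array, so a lower level can mean fewer cells of a type or less RNA in each cell. The WT father embryos lay on another slide than the HET father embryos, so slide and father cannot be told apart. In the WT father group 3 embryos shared the first part of the embryo code, whose meaning the labels do not state, while the 4 HET father embryos had 4 codes. Sires and litters could not be mapped to embryos, so a group may come from fewer fathers than embryos. The publication's breeding plan gives 2 wild-type and 3 heterozygous males, whereas a supplementary legend gives n = 4 for each genotype.

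Probes well above background numbered 29198 to 39527 per array, and WT father replicate 1 and HET father replicate 3 had the most (39527 and 38878). The median local background was 50 to 51 on the WT father slide, 30 to 32 for HET father replicates 1 to 3 and 133 for HET father replicate 4. Of the marker genes of the E8.5 embryo (erythroid, somite, neural, heart, endothelial and axial), 18 of 18 were well above background on all 8 arrays. All 4 markers of yolk sac endoderm were too, and their summed level did not separate the fathers (7.74 to 8.41 with WT, 8.07 to 8.22 with HET). The 3 probed markers of decidua and trophoblast had a summed level of 2.79 to 3.44 with WT fathers and 1.18 to 2.44 with HET fathers. Of these, only Prl8a2, a prolactin family gene of the decidua, separated the fathers (1.56 to 2.92 with WT, -2.61 to 0.72 with HET). Prl3d1 (-0.81 to 0.83 with WT, -2.99 to 0.03 with HET) and Dcn (0.88 to 1.42, 0.48 to 1.47) overlapped.

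Most interval probes were dim. Of the 16181, 4769 were well above background on no array and 4347 (26.9%) on all 8, and 3634 of the latter had a level at or below 0. The same rule kept 12526 of the 39500 other probes on the array (31.7%). Among the 713 bright interval probes the median level was 1.49 and the highest 8.05. A level between 0 and 1 was found for 250 probes, between 1 and 2 for 190, between 2 and 4 for 175 and above 4 for 98. The members nearest to the limit were A_30_P01029909 in chr1:141070245-141076841 and A_30_P01026637 in chr2:151992806-152025456, both at 0.005. Just outside it were A_30_P01021613 in chr12:110944403-110988678, at -0.015, and A_30_P01026160 in chr1:138528250-138538250, at -0.021. No bright interval probe was saturated or marked as an outlier spot on any array.

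The brightest probe, A_30_P01026458, lies on the reverse strand of chr11:22681800-22707775, an interval of 25976 bases. Its level was 8.17, 7.91, 8.06 and 7.99 in the 4 WT father embryos, in replicate order (used for all such values), and ran from 7.93 in replicate 1 to 8.20 in replicate 3 of the 4 HET father embryos. The groups overlapped and the SD over the 8 embryos was 0.11. A_30_P01021243, the only probe of chr17:48068261-48087905 (F), was lowest in replicate 2 (7.82) and highest in replicate 1 with WT fathers, and ran from 7.81 in replicate 1 to 8.08 in replicate 3 with HET fathers. In chr17:17481706-17482457 (R), a short interval of 752 bases, all 3 probes were bright, and the brightest, A_30_P01022075, stood at 7.93, 7.80, 7.82 and 7.91 with WT fathers and 7.71, 7.86, 7.92 and 7.84 with HET fathers. In each of these intervals the fathers' groups overlapped.

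The next brightest intervals were chr17:39982023-39983277 (F, level 7.68), chr6:116123643-116124550 (F, 7.66), chr7:108209996-108216032 (R, 7.60), chr14:78924115-78938125 (F, 7.47), chr6:83368261-83407280 (F, 7.30), chr6:116092274-116144199 (F, 7.12) and chr12:73838608-73862621 (R, 7.08), each given by its brightest probe. SDs over the 8 embryos ran from 0.06 to 0.20 among the 10 brightest. The order of intervals depends on which probe represents each, since probes bind with different strength.

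**Figure D1:**
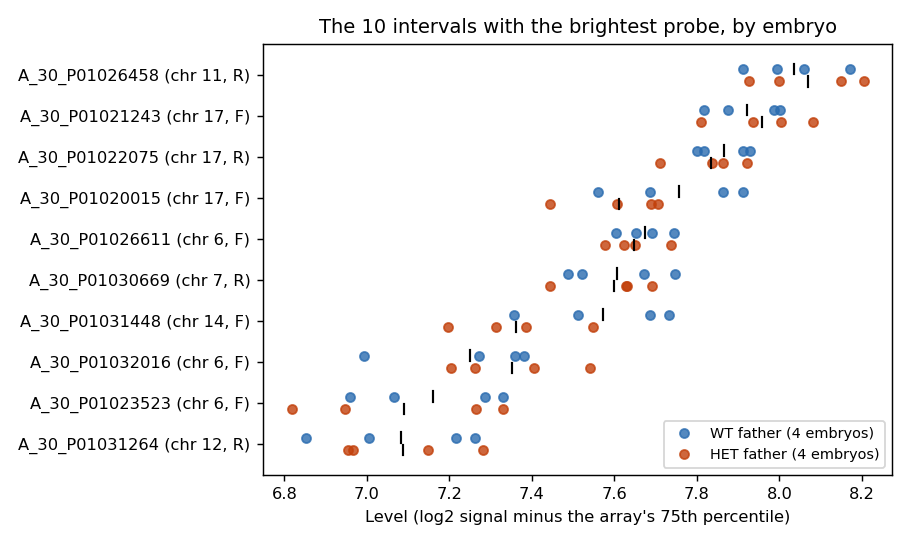
Level (log2 processed signal minus the array's 75th percentile) of the brightest probe of the 10 intervals with the highest levels, with 1 point per embryo (4 with WT and 4 with HET fathers) and a black bar at each group's mean; the axis does not start at 0. In all 10 intervals the points of the groups overlap, and the brightest probe, on chromosome 11, ranged from 7.91 to 8.20.

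A bright probe was often alone in its interval. Of the 395 intervals, 241 had 1 bright probe, 67 had 2, 49 had 3 and 38 had more, up to 9. In 195 intervals 1 of 3 or more probes was bright, and in 42 of those no other probe was well above background on all 8 arrays. In chr14:78924115-78938125, the seventh brightest interval, 1 of 13 probes was bright, 4 were well above background on all arrays and 4 on none. At the other end, all probes were bright in 71 intervals, 41 of which had more than 1 probe.

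The probes of bright intervals that were not bright themselves give a measure that the rule did not fix. Of these 2229 probes, 836 (37.5%) were well above background on all 8 arrays, 879 on some and 514 on none. In intervals with no bright probe, 21.1% of 13239 probes were well above background on all 8. Detection was thus more frequent beside a bright probe than in the other intervals.

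The intervals with the most bright probes were chr17:39960567-39992817 and chr5:74487385-74497428, with 9 each. In the chromosome 17 interval (32251 bases) all 9 probes were bright, 4 on F and 5 on R. On chromosome 5 (10044 bases) 9 of the 10 F probes were bright and none of the 10 R probes, although 7 of the latter were well above background on all arrays. The brightest of the chromosome 5 probes, A_30_P01032180, was at 3.95, 3.92, 3.72 and 3.81 with WT fathers and 3.58, 3.75, 3.90 and 3.94 with HET fathers. Its groups overlapped, and HET father replicate 1 was the lowest embryo at 7 of the interval's 9 bright probes.

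Both strands carried probes in 1067 of the 3540 intervals and in 245 of the 395 bright ones. Bright probes were spread evenly over the strands, 377 on F and 336 on R, as were all interval probes (8171 on F and 8010 on R). Of the 245 bright intervals probed on both strands, 209 were bright on 1 strand (109 on F, 100 on R) and 36 on both. In those 209 intervals the opposite strand was often detected too. Of its 1073 probes, 337 (31.4%) were well above background on all 8 arrays and 258 (24%) on none. Probes on the bright strand that were not bright themselves were well above background on all 8 arrays in 297 of 695 cases (42.7%). They were so on none in 152 (21.9%). The bright probes, detected on all 8 arrays by the rule, are not in these shares. The share in intervals probed on both strands without a bright probe was 20.3% of 7139 probes. At least 1 opposite-strand probe was detected on all 8 arrays in 129 of the 209 intervals, and in 5 no opposite-strand probe was detected on any array.

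**Figure D2:**
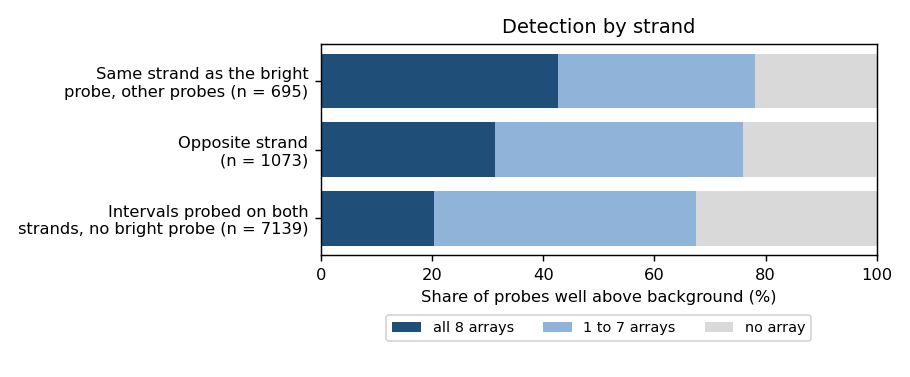
Share of probes (%, horizontal axis) well above background on all 8 arrays, on 1 to 7 arrays or on none, for other probes on the bright strand, probes on the opposite strand and probes of intervals without a bright probe. Bright probes, which the rule requires to be detected on all 8 arrays, are left out. Detection on all 8 arrays was 42.7% among the other probes of the bright strand, 31.4% on the opposite strand and 20.3% where no probe was bright.

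The 36 intervals bright on both strands held 121 bright probes. In 17 of them 1 probe on each strand was bright, in 8 every probe was well above background on all arrays, and in 4 every probe was bright. Ordered by the brightest probe of the dimmer strand, chr12:73838608-73862621 came first, with A_30_P01020570 (F) at 6.68, 6.25, 6.51 and 6.27 with WT fathers and 6.08, 6.39, 6.37 and 6.44 with HET fathers. On its R strand A_30_P01031264 was at 7.26, 7.00, 7.22 and 6.85 with WT fathers and 6.97, 7.28, 6.96 and 7.15 with HET fathers. The fathers' groups overlapped on both strands, and of the interval's other 8 probes, 5 were well above background on no array.

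The next intervals bright on both strands were chr17:39960567-39992817, chr5:35975265-35982561, chr5:34696192-34722842, chr2:151992806-152025456, chr17:35080914-35090009, chr7:108209996-108216032, chr11:22681800-22707775, chr6:116092274-116144199 and chr12:119825125-119850750. Embryos did not always follow each other on the strands of an interval. In chr5:34696192-34722842, the R probe A_30_P01027463 was at 2.45, 2.58, 2.83 and 2.40 with WT fathers and 2.06, 2.60, 2.46 and 4.03 with HET fathers, whereas the F probe A_30_P01023896 was at 5.23, 5.01, 5.30 and 4.51 with WT fathers and 4.61, 5.11, 4.65 and 5.10 with HET fathers. HET father replicate 4, the array with the highest local background, stood above all others on R but not on F, and the part of that background was not tested.

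All 20 probed chromosomes (1 to 19 and X) held bright intervals. Chromosome 17 had the most bright probes, 74 of 899 (8.23%), followed in share by chromosome 14 (57, 7.95%), chromosome 5 (59, 6.1%), chromosome 6 (57, 5.85%) and X (32, 5.55%). The lowest shares were on chromosome 16 (11, 1.9%), chromosome 9 (18, 2.45%) and chromosome 3 (22, 2.46%). Probes of an interval share their target, and intervals overlap, so these shares count clustered probes. Joined wherever they overlap, the 395 intervals form 342 loci, of which 45 hold more than 1 bright interval.

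**Figure D3:**
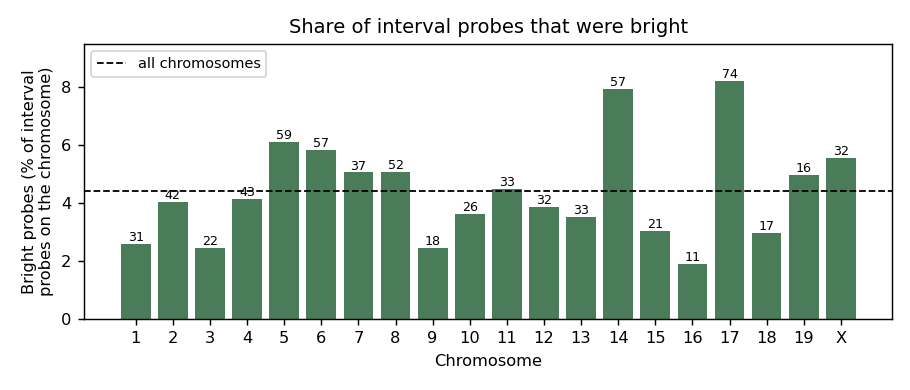
Bright probes as a percentage of the interval probes on each chromosome (bars, number of bright probes on top), with the share over all chromosomes (4.41%) as a dashed line. Chromosomes 17 and 14 stood highest at 8.23% and 7.95%, and chromosome 16 lowest at 1.9%.

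The locus with the most bright probes, chr17:39960567-39992817, held 5 overlapping intervals in which all 20 probes were bright, 10 on each strand. Levels ran from 2.79 to 7.68, and WT father replicate 1 was the highest embryo at 17 of the 20. The brightest of them, A_30_P01020015 in chr17:39982023-39983277 (F), was at 7.91, 7.69, 7.86 and 7.56 with WT fathers and 7.44, 7.71, 7.61 and 7.69 with HET fathers, and these groups overlapped. The locus chr19:5771425-5848475 held 4 bright intervals and 9 bright probes of 21, and chr8:72663591-72673010 held 3 and 8 of 23. Which genes or repeats lie in these loci was not checked, and they may hold known genes or, at the chromosome 17 locus, ribosomal RNA sequence. Without the chromosome 17 locus, chromosome 17 keeps 54 bright probes of 879 (6.14%).

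Bright intervals were longer than the others, with a median of 14479 bases (quartiles 6064 and 30548) against 6284 (685 and 20587), and held more probes (median 6 against 3). An interval with more probes has more chances to hold a bright one, so length was also compared within classes of probe number. Among intervals with 1 to 3 probes, 160 of 2451 (6.53%) were bright and their median length was 3506 bases against 2034 for the rest. Of those with 4 to 10 probes 152 of 875 (17.4%) were bright, at 19276 against 16926 bases, and of those with 11 to 20 probes 83 of 214 (38.8%), at 26701 against 25101. Within each class the lengths lay closer together than over all intervals.

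The longest bright interval, chr13:28477490-28985604 (508115 bases), was bright at 1 of 11 probes, A_30_P01027179 (R). Its level was 4.00, 3.92, 3.93 and 3.95 with WT fathers and 3.84, 4.07, 3.81 and 4.04 with HET fathers, and no other probe of the interval was well above background on all arrays. The shortest, chr4:33364774-33364898 (R, 125 bases), had a single probe, A_30_P01025225, at 6.07, 5.98, 6.10 and 6.09 with WT fathers and 6.17, 6.17, 6.13 and 6.25 with HET fathers. These groups did not overlap, but the difference was only 0.12 (SE 0.06) and did not pass the test (limma, adjusted p = 1).

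The SD of bright interval probes over the 8 embryos had a median of 0.162 (quartiles 0.116 and 0.227), or 0.158 within the fathers' groups. With arrays scaled by their median the SD was 0.529. For the 12526 other probes that met the same rule it was 0.122, and it was lower than that of the interval probes in each class of level. The gap was widest for the brightest probes: between levels 0 and 1 the medians were 0.167 and 0.156, and above 4 they were 0.150 and 0.101. The steadiest probe, A_30_P01030879 in chrX:6982891-7008528 (R), was at 0.51, 0.58, 0.52 and 0.48 with WT fathers and 0.54, 0.50, 0.54 and 0.50 with HET fathers, an SD of 0.03. Of the 5 steadiest, 2 probes, A_30_P01028302 and A_30_P01023813, shared chr14:77006215-77063293 (R), with levels of 6.04 and 5.29 and an SD of 0.04 each.

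An SD above 0.5 was reached by 22 bright interval probes (3.09%), in 17 intervals, compared with 2.06% of the other bright probes. In each lower class of level the interval probes had the larger share, but above level 4 the smaller one (1.02% against 2.16%). Of these 22, 12 were on chromosome 5, in 7 intervals, although chromosome 5 held only 59 of the 713 bright probes. Where an interval had 3 or more bright probes (87 intervals), all of them had the same lowest embryo in 21 intervals and the same highest embryo in 21.

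The widest spread was in chr5:23195569-23218551, an interval of 22983 bases in which 4 of the 7 R probes were bright. A_30_P01026028 was at 3.34, 4.16, 4.12 and 3.43 with WT fathers and 3.15, 0.62, 0.51 and 3.27 with HET fathers. A_30_P01019583, the brightest of the 4, was at 4.42, 5.10, 5.09 and 4.40 with WT fathers and 4.15, 1.82, 1.73 and 4.29 with HET fathers. At all 4 probes HET father replicates 2 and 3 were the lowest, WT father replicates 2 and 3 were the highest, and the other 4 embryos lay between, close to each other. The fathers' groups did not overlap at the probes shown and overlapped at the other 2. The 6 probes of the interval that were not bright (3 on each strand) ran differently: at 6 of 6, WT father replicates 2 and 3 were the lowest embryos.

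Another set of levels appeared at chr5:137392195-137426421, where 3 overlapping intervals held 4 bright probes, all on F. A_30_P01026385 was at 2.28, 0.55, 0.72 and 2.24 with WT fathers and 2.37, 0.74, 2.22 and 2.95 with HET fathers. A_30_P01020631 was at 1.13, -0.70, -0.50 and 0.98 with WT fathers and 1.18, -0.52, 1.09 and 1.83 with HET fathers. WT father replicates 2 and 3 and HET father replicate 2 were the lowest embryos at each of the 10 F probes of the locus that were detected on all arrays, but at only 1 of the 4 such R probes. Here low and high embryos were found with both kinds of father.

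In 2 other intervals of wide spread 1 embryo lay far below the rest. A_30_P01027466 in chr4:35106125-35127700 (R) was at 0.34, -0.94, -0.07 and 0.35 with WT fathers and 1.00, 1.77, -2.87 and 1.06 with HET fathers, so that HET father replicate 3 was lowest. A_30_P01025870 in chr2:180161459-180189542 (R) was at 0.68, 0.52, 0.66 and 0.68 with WT fathers and 0.10, 0.33, 0.52 and -2.23 with HET fathers, so that HET father replicate 4 was lowest.

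**Figure D4:**
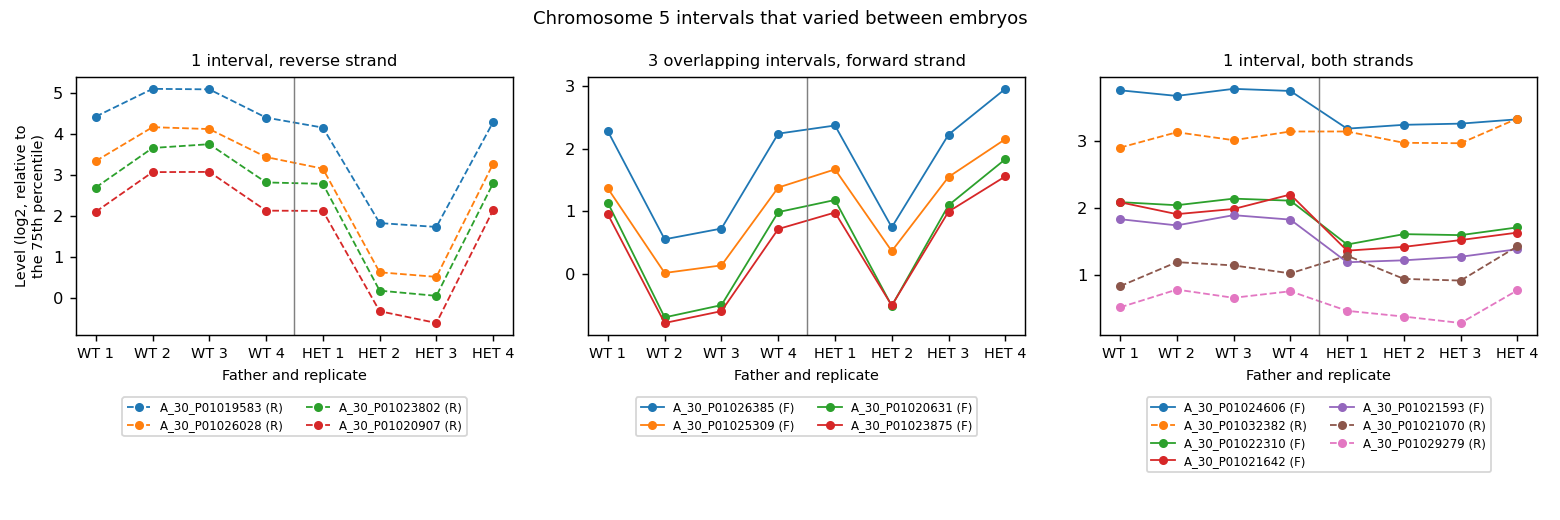
Level (log2 processed signal minus the array's 75th percentile) of each bright probe in the 8 embryos for chr5:23195569-23218551 (left), chr5:137392195-137426421 (middle) and chr5:35975265-35982561 (right), with solid lines for F probes, dashed lines for R probes and a grey line between the fathers' groups. On the left HET father replicates 2 and 3 are lowest, in the middle WT father replicates 2 and 3 and HET father replicate 2, and on the right the 4 F probes lie lower in all HET father embryos while the R probes overlap.

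Whether the father's genotype went with the level of these transcripts was tested with limma over all 33086 probes that passed the filters, including all 713 bright interval probes. None of the 713 was called at an adjusted p under 0.01 and at least 2-fold, against 0% of all tested probes, and the lowest adjusted p was 0.413. At an unadjusted p under 0.05 there were 34 (4.77%), in 26 intervals, against 4.35% of all tested probes. Of these, 12 were higher with HET fathers (1.68% against 2% of all) and 22 lower (3.09% against 2.35%). The fathers' groups did not overlap at 24 probes (3.37%) against 3.16% of all tested. Among the 12526 other bright probes, 319 (2.55%) were higher and 145 (1.16%) lower with HET fathers at that limit. The 3 WT father embryos that shared a code varied together (correlation 0.539), and no other embryos shared one. WT father replicate 1, the array with the most probes well above background, was the embryo of that group with another code. Its part in this correlation was not tested. With a random block for the code the count of 34 fell to 15.

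The differences were small. The median log2 fold change (HET minus WT) was -0.02, against -0.00 over all tested probes, and 653 of the 713 (91.6%) lay within 0.25 of 0. The median SE was 0.113. A difference above 2-fold was seen at 4 probes, all of them in chr5:23195569-23218551, with fold changes on the log2 scale from -1.75 to -1.88. For A_30_P01026028 it was -1.88 (SE 0.72, limma adjusted p = 1), and it rested on HET father replicates 2 and 3. With 1 embryo left out it ranged from -2.34 to -1.42.

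A difference shared by all embryos of a group was found on the F strand of chr5:35975265-35982561 (7297 bases). A_30_P01024606 was at 3.76, 3.68, 3.78 and 3.75 with WT fathers and 3.19, 3.24, 3.26 and 3.33 with HET fathers. A_30_P01021642 was at 2.08, 1.91, 1.98 and 2.20 with WT fathers and 1.36, 1.42, 1.52 and 1.63 with HET fathers. In both, every HET father embryo lay below every WT father embryo, as it did at all 4 F probes. Their log2 fold changes were -0.49, -0.50, -0.56 and -0.56, and the limma adjusted p-values ran from 0.413 to 0.733, so none passed the threshold. The interval was singled out by its difference between the fathers, so the separation of the groups follows in part from that choice. Among all tested probes the fathers' groups did not overlap at 3.16%. The 4 F probes share a target and are not independent of each other. On the R strand, 3 of the 4 probes were bright, their groups overlapped and their fold changes were 0.06, 0.10 and -0.20. The difference between the strands was not tested. The summed level of decidua and trophoblast markers also differed between the fathers' embryos, and its part here was not tested.

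The largest rise was in chr5:31856417-31916414 (F), where A_30_P01029297 was at 2.17, 2.04, 2.75 and 2.82 with WT fathers and 3.22, 3.37, 3.34 and 2.88 with HET fathers. The groups did not overlap, and the log2 difference of 0.76 (SE 0.21) had an adjusted p of 1 (limma). In chr6:35201798-35217831 (F) A_30_P01018280 was at 0.10, -0.82, 0.32 and -0.23 with WT fathers and 0.21, 0.78, 0.29 and 0.69 with HET fathers, with overlap and a difference of 0.65. The other 3 of the 5 largest rises were the probes A_30_P01025309 (0.71), A_30_P01020631 (0.67) and A_30_P01026385 (0.63) of the chr5:137392195-137426421 locus, where embryos split across the fathers.

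After the chr5:23195569-23218551 probes, the largest falls were at A_30_P01025870 (-0.96), set by HET father replicate 4, and in chr5:22928221-22939127 (R). There A_30_P01028350 was at 0.54, 0.85, 0.67 and 0.27 with WT fathers and -0.78, -0.70, -0.31 and 0.43 with HET fathers, which overlapped through HET father replicate 4 (difference -0.92, SE 0.28, limma adjusted p = 1). The interval's other bright probe, A_30_P01030591, was at 1.02, 1.27, 1.04 and 0.76 with WT fathers and 0.39, -0.55, 0.13 and 0.61 with HET fathers, with no overlap and a difference of -0.88. In chr5:34696192-34722842 (F) A_30_P01030106 differed by -0.54, with levels of 2.41 to 2.84 with WT fathers and 1.65 to 2.52 with HET fathers.

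Chromosome 5 held 12 of the 34 probes at an unadjusted p under 0.05, in 5 intervals. The chromosome was singled out after these values were seen. Among all tested interval probes, bright or not, 40 of 486 on chromosome 5 (8.23%) were at an unadjusted p under 0.05, compared with 318 of 6640 on all chromosomes (4.79%).

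The sexes were compared in the same way, with the father as a term. None of the 713 probes was called, against 0.0332% (11 probes) of all tested, and the lowest adjusted p was 1. At an unadjusted p under 0.05 there were 84 (11.8%) against 3.26% of all tested probes. Of these, 3 were higher in males, against 1.31% of all, and 81 (11.4%) were higher in females, against 1.96% of all. Among the 12526 other bright probes, 0.918% were at that limit and higher in females. The 81 probes lay in 71 intervals, and the median difference (male minus female) was -0.28 on the log2 scale.

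Of the 81, 1 was on X, which held 32 of all 713 bright probes, and 11 were on chromosome 17, which held 74 of the 713. At 55 of the 81 the sexes did not overlap. The 81 were chosen by their difference between the sexes, so such separation follows in part from the choice. No such share over all tested probes is at hand. Markers of cell types were also compared between the sexes, with no share over all tested probes to set beside them. The chromosomes of the marker genes were not used here. Of 25 marker genes, Gata1, a transcription factor of red blood cell precursors, was higher in all females (3.36 to 3.55) than in any male (2.40 to 3.14). The endothelial genes Kdr (3.04 to 3.37 in females, 3.42 to 3.71 in males) and Cdh5 (1.29 to 1.46, 1.47 to 1.78) separated the other way. The sexes overlapped at all other marker genes tested, including the erythroid markers Hba-x and Hbb-bh1 and the endothelial marker Pecam1. The summed level of the 3 erythroid markers was 9.24 to 9.52 in females and 8.70 to 9.35 in males, and that of the 3 endothelial markers was 3.46 to 3.74 and 3.78 to 4.04. WT father replicate 4 was the lowest embryo at all 3 erythroid and 3 of the 4 yolk sac markers. The part of these markers in the difference between the sexes was not tested.

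The 81 probes were chosen as higher in females, so a male as the lowest embryo follows largely from that choice. That male was WT father replicate 4 at 40 probes and HET father replicate 1 at 21. It was HET father replicate 3 at 15 and WT father replicate 2 at 5. Among the 10 brightest intervals, 5 of the probes shown were of this kind, for example A_30_P01023523 in chr6:116092274-116144199 (F). Its level was 7.29 and 7.33 in the females and 7.07 and 6.96 in the males with WT fathers, and 7.26 and 7.33 in the females and 6.82 and 6.95 in the males with HET fathers. The difference was -0.36, with no overlap between the sexes. The count fell from 84 to 1 when arrays were scaled by their median instead of the 75th percentile, to 47 without WT father replicate 4 and to 51 without WT father replicate 3.

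The 3 probes higher in males, named because they are few, were A_30_P01023644 and A_30_P01020395 in chr8:19792940-19798868 (F), with differences of 0.54 and 0.51, and A_30_P01018462 in chr8:119732348-119749198 (F), with 0.17. On X, the 32 bright probes of 16 intervals differed between the sexes by -0.24 to 0.24, with a median of -0.01, and 1 was at an unadjusted p under 0.05. The brightest X interval, chrX:138967807-138968413 (R), had A_30_P01031213 at 6.02 and 5.89 in the females and 5.86 and 5.96 in the males with WT fathers, and 5.83 and 5.72 in the females and 5.79 and 5.94 in the males with HET fathers. The sexes overlapped there, as they did for the next X intervals, chrX:18744367-18853992 (F, level 5.39) and chrX:98658045-98677545 (F).

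Whether the father's effect differed between the sexes was tested with an interaction term. No bright interval probe was called, against 0% of all tested probes, and 4 (0.561%) were at an unadjusted p under 0.05, against 2.22% of all. They lay in chr8:74820025-74833350 (F), chr12:16833551-16901804 (F) and, with 2 probes, chr14:65431652-65437902 (F), and the lowest adjusted p was 0.996 (limma).

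Embryos differed in how often they were the lowest or highest. HET father replicate 1 was the lowest of the 8 at 28.9% of the 713 probes and HET father replicate 4 at 3.65%, while among the other bright probes these shares were 14.4% and 7.80%. WT father replicate 1 was the highest at 19.6%, against 12.3% of the other bright probes. The typical size was small, with a median deviation from the probe's mean of -0.06 in HET father replicate 1 and 0.03 in WT father replicate 1.

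**Figure D5:**
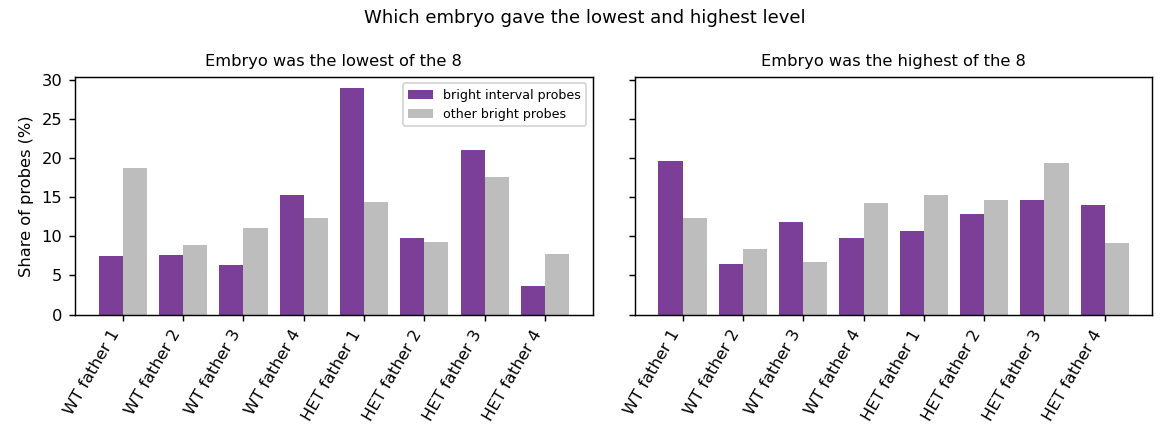
Share of probes (%) at which each embryo had the lowest (left) or the highest (right) level of the 8, for the 713 bright interval probes (purple) and the 12526 other bright probes (grey). HET father replicate 1 was lowest at 28.9% of bright interval probes and 14.4% of the others, and WT father replicate 1 was highest at 19.6% and 12.3%.

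A list of transcripts that differ in heterozygous E8.5 offspring, embryos not measured here, accompanies the publication. It compares offspring of homozygous (Eed hypo/hypo) fathers with those of heterozygous fathers. Its contrast is thus not the one between HET and WT fathers made here. On this array 112 of its probes were matched, 40 of them were interval probes, and 4 of these were bright. They were A_30_P01020727 in chr12:82500406-82501102 (F), A_30_P01033392 in chr8:91569369-91594119 (R), A_30_P01031737 in chr3:51138643-51146693 (F) and A_30_P01027016 in chr9:81537835-81583227 (R). Between the fathers they differed by -0.05, 0.02, -0.03 and 0.01 on the log2 scale, less than their SEs. A_30_P01020727, the brightest, was at 2.04, 1.98, 1.91 and 2.01 with WT fathers and 1.82, 1.92, 2.04 and 1.94 with HET fathers, and its groups overlapped. Long noncoding RNAs with names were looked up beside the intervals. Of 30, among them Meg3 and Malat1, 17 were matched to a probe by name, 16 were well above background on all arrays and 13 met the same rule as the intervals.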

How the data were processed

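RNA of 8 embryos was measured on one-colour Agilent SurePrint G3 Mouse GE 8x60K arrays. The authors extracted spot intensity values with Agilent Feature Extraction (version 11.0.1.1, per the labels). Its processed intensity, as deposited, has local background and spatial trend removed and no scaling from array to array. According to the methods, values were then shifted by a percentile that is not named, with removal of the lowest 20% of probes and of those not expressed in at least 4 of 8 samples, and calls at 2-fold and a false discovery rate of 0.01. The deposited table of the whole series, with 0 sample columns unused, served as an alternative source.

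From the log2 of each deposited processed intensity, the array's 75th percentile was subtracted. Spots marked as controls or outliers did not enter, and each interval probe has 1 spot. The same filters as in the methods were applied, with expressed taken as well above background. Differences were tested with limma (3.58.1, R 4.3.3) over 33086 probes, with Benjamini-Hochberg adjustment over all of them. Summaries and figures were made with Python 3.11.15, pandas 2.3.3 and numpy 2.4.6, and files were read with the data.table package, version 1.17.8. The script was tested on simulated data with 200 changed probes. How many of these it recovered is not given here, so the test does not show which changes could be missed. Intervals sharing at least 1 base were joined into loci. Gene names came from RefSeq (assembly GRCm38.p6, names only; 27235 probes had a symbol). No source says that the embryos were independent beyond being separate samples, so p-values measure the spread between these 8 embryos, and the number of arrays limits precision.

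The members, marker lists and tests were chosen with earlier results of these data known. Named intervals followed a rule: the 10 brightest, the 5 largest rises and falls between fathers (1 per interval), the 5 largest and smallest SDs, at most 10 intervals bright on both strands, those with the most bright probes, the longest and shortest, the 2 probes on either side of the limit, at most 5 members of the study's list and at most 5 X intervals. Others were named after their values were seen. Alternatives covered background correction, scaling, the source of values, filters, thresholds, covariates, blocks, array weights and left-out embryos. Replicate numbers were not used to pair embryos.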

Additional observations from a re-analysis of the deposited data

Results flagged for a closer look

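Dixon's test was run on 150 groups of 4 embryos, for 74 probes of named intervals and the bright probes' median deviation. In 6 groups (4%) an embryo stood apart from the others of its group, and chance gives about 1 in 20. In the WT father group, A_30_P01021775 of chr17:39960567-39992817 (F) was at 4.86 in replicate 1, with the nearest embryo at 4.50. A_30_P01033392 of chr8:91569369-91594119 (R) was at 1.46 in the same embryo, with the nearest at 1.19. A_30_P01025870 of chr2:180161459-180189542 (R) was at 0.52 in WT father replicate 2, with the nearest at 0.66, and at -2.23 in HET father replicate 4, with the nearest at 0.10. A_30_P01027466 of chr4:35106125-35127700 (R) was at -2.87 in HET father replicate 3, with the nearest at 1.00. A_30_P01031738 of chr6:116092274-116144199 (R) was at 1.41 in HET father replicate 1, with the nearest at 1.65.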

How the results depend on the processing

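No bright interval probe was called between the fathers, between the sexes or for their interaction under any of the 19, 15 and 6 alternatives run, and the 10 named rises and falls kept their sign in all 18 alternatives run for each. The number at an unadjusted p under 0.05 between the fathers, 34, became 54 with normexp and quantile normalization, 7 with scaling by the median, 73 with array weights and 15 with a random block for the embryo code. It ranged from 21 to 49 with 1 embryo left out (21 without WT father replicate 2, 22 without HET father replicate 1 and 22 without HET father replicate 2). With WT father replicate 1 and HET father replicate 3 both left out, an alternative chosen after seeing the data, it was 36. The number between the sexes, 84, became 1 with scaling by the median and 50 with no filter, ranged from 47 to 89 with 1 embryo left out and was 90 without both embryos; these sex counts were also chosen after seeing the data. The median log2 fold change between the fathers was -0.12 with scaling by the median, which moved the median of all tested probes to -0.10, and ranged from -0.04 to 0.00 with 1 embryo left out. Scaling by the median, which sets a lower limit for brightness, gave 4044 bright probes, 1682 bright intervals, 343 intervals bright on both strands and a median SD of 0.529 in place of 0.162. A level above 1 kept 463 probes and 19 intervals bright on both strands. The median SD ranged from 0.156 to 0.168 with 1 embryo left out. The causes of these changes were not tested.

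With the replicate number as a block, 15 probes were at an unadjusted p under 0.05 between the fathers. Embryos with the same number did not vary together (correlations of -0.547, -0.045, -0.587 and -0.149), so the numbers do not pair them.

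These results rest on 4 embryos per father group and 1 array each. Father and slide cannot be told apart. Dim probes of an interval have little signal over background, and a probe that was not well above background says nothing about RNA elsewhere in its interval.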
